A study of Mus musculus with 12 samples.

Results

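The transcription factors most often linked to the epithelial-mesenchymal transition (EMT), Snai1, Snai2, Twist1, Zeb1, Zeb2 and Prrx1, were followed through every annotated cell class of 6 mouse mammary tumours and through single tumour cells. The 6 genes were listed by name, and all 6 were found among the 19369 genes of the tables. The tumours came from 5 clones, each descended from 1 cell of the 4T1 line, a mouse mammary carcinoma line used as a model of triple-negative breast cancer, and from the parental line itself. The clones are called Clone E, Clone EM1, Clone EM2, Clone EM3 and Clone M. They are described as covering epithelial, intermediate and mesenchymal states, and the labels do not say which clone is in which state. All cells were implanted in the mammary fat pad of female BALB/c mice of 9 to 11 weeks, an immunocompetent host of the strain the line came from, and the labels name no treatment or genetic change in any group. Each of the 6 groups is 1 tumour. Each tumour was measured in a Total library, of all dissociated cells, and in a CD45 library, made after magnetic enrichment for the leukocyte antigen CD45. No test between clones was therefore possible. Comparisons between cell classes or between cells of 1 class were made within each of the 6 tumours, which served as replicates for those contrasts. The 6 tumours were also the points of 1 relation across tumours, given further on.

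In an epithelial-mesenchymal transition, epithelial cells loosen their junctions, lose apical polarity and take on mesenchymal and migratory traits. Snai1 and Snai2 encode zinc-finger repressors of the SNAIL family, Zeb1 and Zeb2 zinc-finger homeodomain repressors, Twist1 a basic helix-loop-helix factor and Prrx1 a paired-related homeobox factor. SNAIL and ZEB proteins bind E-box elements in promoters of junction genes such as Cdh1 and recruit corepressor complexes. The same genes have roles outside carcinoma cells: Prrx1, Twist1 and Snai2 mark mesenchymal lineages, Zeb1 acts in T cell development and Zeb2 in the differentiation of myeloid, NK and T cells.

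The E-box bound by SNAIL and ZEB proteins, CACCTG (its reverse complement is CAGGTG, so both strands were searched by finding either), was looked for in the 250 bases before each gene's annotated start, in RefSeq sequences of build GRCm38.p6. Of 27025 genes in that table, 17.1% held at least 1 match. Matches were found for 8 of 14 genes of the epithelial list that the table holds, for 0 of 12 of the mesenchymal list, and for 1 of the 4 members it holds (Snai1; Snai2 and Zeb1 were not matched to the table). The sequences of Epcam and Cldn4, an adhesion and a tight-junction gene whose levels are compared further on, and those of Snai1 and Twist1 are shown 5′ to 3′ on the strand of the gene, with the matches in capitals. They lie at chr17:87635729-87635978 on the + strand for Epcam, chr5:134946935-134947184 on the − strand for Cldn4, chr2:167537945-167538194 on the + strand for Snai1 and chr12:33957421-33957670 on the + strand for Twist1.
Epcam: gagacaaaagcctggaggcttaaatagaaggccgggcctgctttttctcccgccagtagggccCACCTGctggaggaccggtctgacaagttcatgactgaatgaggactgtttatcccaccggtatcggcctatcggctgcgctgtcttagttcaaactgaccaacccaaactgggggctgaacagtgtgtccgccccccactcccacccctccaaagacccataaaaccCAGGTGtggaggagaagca
Cldn4: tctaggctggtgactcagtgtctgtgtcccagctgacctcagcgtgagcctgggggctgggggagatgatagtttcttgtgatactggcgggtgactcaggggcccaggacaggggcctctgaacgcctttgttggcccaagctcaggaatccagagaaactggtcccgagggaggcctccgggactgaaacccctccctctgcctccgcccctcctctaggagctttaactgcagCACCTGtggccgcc
Snai1: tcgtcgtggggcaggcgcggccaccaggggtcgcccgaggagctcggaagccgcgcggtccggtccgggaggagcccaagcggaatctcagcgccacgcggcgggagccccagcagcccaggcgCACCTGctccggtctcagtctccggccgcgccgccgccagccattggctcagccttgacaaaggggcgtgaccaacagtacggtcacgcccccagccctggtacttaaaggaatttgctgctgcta
Twist1: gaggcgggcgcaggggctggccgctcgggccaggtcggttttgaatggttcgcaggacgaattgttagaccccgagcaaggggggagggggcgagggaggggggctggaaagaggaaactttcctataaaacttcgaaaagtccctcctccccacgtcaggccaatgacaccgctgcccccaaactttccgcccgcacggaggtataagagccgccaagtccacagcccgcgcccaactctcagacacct
The matches of Epcam began 187 and 19 bases before the start, that of Cldn4 14 bases and that of Snai1 126 bases before it, and the Twist1 window held none. A match describes the letters only, and no binding was measured.

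The Total libraries held 6709 to 13467 cells and 38499899 to 122055131 UMIs (unique molecular identifiers, the tags by which copies of a captured molecule are counted once; whether they count probes or captured transcripts is not settled, since the labels name both a fixed-RNA kit and reagents for transcript ends), and the CD45 libraries 6791 to 11024 cells and 28083101 to 57116299 UMIs. Cell classes are those of the authors' annotation. In every class that carries a cell type's name, the marker list of that type had its highest median summed level, for example 73929 to 161700 CPM (counts scaled to a fixed total per library and class) of 9 fibroblast markers in fibroblasts against 1466 to 2374 in T/NK cells, the class with the next highest median. The tumour markers were Krt8, Krt18, Krt7, Epcam, Cdh1, Csf3 and Lcn2. In granulocytes their sum stood at 34.8 to 99.2% of the tumour cells' level, but single markers differed. Epcam stood there at 8.05 to 32.4%, Csf3 at 9.46 to 27.7% and Cdh1 at 8.25 to 229%, and the keratins are given further on. Cells annotated as Unknown carried both tumour markers, at 47.6 to 72.3% of the tumour cells' level, and macrophage markers, at 5518 to 10928 CPM. Some libraries shared cell barcodes. The first 16 bases of 1434 barcodes were common to the Total libraries of Clones E and EM3, and of 906 barcodes to those of EM1 and EM2. Among the 4 libraries of Clones E and EM3, CD45 libraries included, each pair had 1345 to 1760 in common, and among the 4 of EM1 and EM2 818 to 1332. The Total and CD45 library of 1 tumour shared 850 to 1732 in each of the 6 tumours, and all other pairs of libraries at most 211. Whole barcodes can be shared only by libraries with the same last 8 bases, and the 12 such pairs shared at most 189. Pairs with different last 8 bases can share no whole barcode, and they include every pair with more than 211 starts in common. What part the shared barcodes have in the values of these tumours was not tested, and the members' values within both pairs are given with the comparison of clones. Levels are CPM of the UMIs summed over a class in a library, and they are compared for 1 gene at a time, since capture can differ between genes.

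Snai1 was most abundant in tumour cells, fibroblasts and endothelial cells, and the ranges of these 3 classes overlapped. Tumour cells held 303 CPM in Clone M, 181 in EM3, 143 in EM2, 216 in EM1, 119 in Clone E and 101 in the parental tumour (mean 177 ± 74.6, SD, n = 6 tumours). Fibroblasts held 99.8 to 177 CPM (median 129) and endothelial cells 117 to 185 (median 141). The tumour cells were the higher of tumour and endothelial cells in 3 of 6 tumours. Among leukocytes, granulocytes held 36.4 to 54.5 CPM, T/NK cells 8.62 to 37.0, dendritic cells (DC) 5.06 to 32.1, B cells 0 to 22.3 and macrophages 6.74 to 11.0. Cells annotated as Unknown held 58.8 to 145 CPM, in the 4 tumours that had 20 or more of them. Granulocytes exceeded T/NK cells in 6 of 6 tumours, although the ranges met.

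Snai2, the SNAIL member also called Slug, was a stromal gene in these tumours. Fibroblasts held 17.8 CPM in Clone M, 14.0 in EM3, 32.2 in EM2, 29.3 in EM1, 18.6 in Clone E and 11.7 in the parental tumour, from 10 to 95 UMIs per tumour. Endothelial cells held 4.58 to 20.4 CPM on 1 to 8 UMIs, and fibroblasts were higher in 4 of 6 tumours. Every other class lay at or under 3.5 CPM, and endothelial cells exceeded T/NK cells in 6 of 6 tumours without overlap. Tumour cells held 0.0370 to 0.760 CPM on 1 to 34 UMIs per tumour, a level at which clones were not compared.

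Twist1 was most abundant in tumour cells and next in fibroblasts. Tumour cells held 397 CPM in Clone M, 454 in EM3, 317 in EM2, 513 in EM1, 181 in Clone E and 293 in the parental tumour (mean 359 ± 120, SD, n = 6), and fibroblasts 147 to 240 (median 181). In Clone E alone the fibroblasts, at 198 CPM, lay above the tumour cells. No other class with a cell type's name passed 68.5 CPM, so that fibroblasts exceeded granulocytes, the next such class, in 6 of 6 tumours without overlap. Endothelial cells, at 3.4 to 56.1 CPM, overlapped T/NK cells (9.96 to 57.5), B cells (11.1 to 57.8) and granulocytes (16.8 to 68.5). DC held 7.59 to 32.0 and macrophages 4.71 to 13.7 CPM, and the Unknown cells 154 to 244.

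The paralogues Zeb1 and Zeb2 had different orders of classes. Zeb1 was highest in T/NK cells, with 168 CPM in Clone M, 147 in EM3, 219 in EM2, 235 in EM1, 208 in Clone E and 265 in the parental tumour. Endothelial cells held 75.0 to 160 CPM, fibroblasts 48.0 to 85.9, DC 50.3 to 76.7, B cells 0 to 43.9 and granulocytes 9.17 to 27.8. T/NK cells exceeded endothelial cells, and endothelial cells fibroblasts, in 6 of 6 tumours each, with ranges that overlapped. Tumour cells held only 3.87 to 7.79 CPM of Zeb1, within the range of macrophages (2.17 to 8.28).

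Zeb2 was highest in macrophages, with 1003 CPM in Clone M, 995 in EM3, 1096 in EM2, 1035 in EM1, 1328 in Clone E and 828 in the parental tumour. Granulocytes held 449 to 873 CPM and lay below the macrophages of the same tumour in 6 of 6. Fibroblasts held 267 to 571 CPM, and their highest value came from Clone E. B cells (152 to 706), T/NK cells (121 to 301), DC (112 to 303) and tumour cells (133 to 260) overlapped one another, and endothelial cells held 82.5 to 194. Cells annotated as Unknown held 374 to 684.

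Prrx1 was a fibroblast gene in these tumours. Fibroblasts held 280 CPM in Clone M, 338 in EM3, 289 in EM2, 299 in EM1, 215 in Clone E and 250 in the parental tumour (mean 278 ± 42.2, SD, n = 6). Endothelial cells, the next class, held 0 to 17.7 CPM, and the largest value of any other class was 7.34. Tumour cells held 0.242 to 0.951 CPM on 5 to 72 UMIs. As a share of the fibroblast level this was 0.0716 to 0.443%, beside 0.144 to 0.481% for the summed fibroblast markers in the same cells. Among these markers Pdgfra stood apart, at 16.8 to 86.1% of its own level in fibroblasts. Of 48 pairs of neighbouring classes compared over the 6 members with an exact two-sided sign-flip permutation test, the smallest p that 6 tumours allow is 0.031, and no pair went below an adjusted p of 0.167 (exact test, Benjamini-Hochberg over 48). The orders of classes are therefore given by their ranges and counts of tumours.

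**Figure D1:**
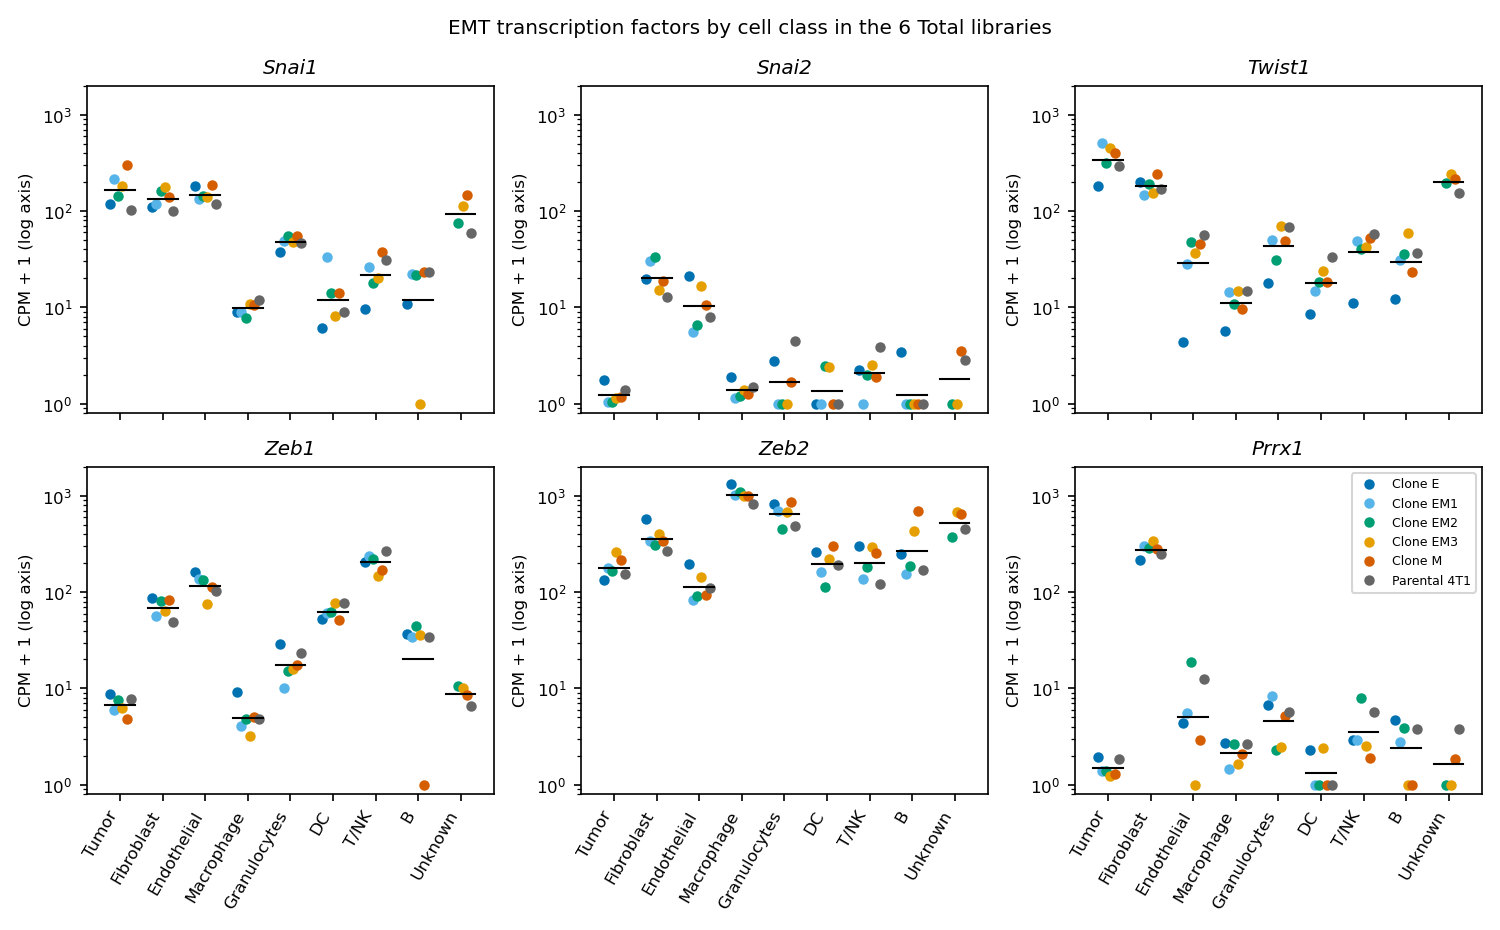
Level of each member (CPM + 1, log axis) in each annotated class of the 6 Total libraries. Points are tumours and bars the mean over tumours on the log scale; Snai1 is high in tumour, fibroblast and endothelial cells, Prrx1 in fibroblasts, Zeb1 in T/NK cells and Zeb2 in macrophages.

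Against the tumour cells of the same tumours, fibroblasts were higher in 4 of the 6 members and lower in 0 (0 also at an unadjusted p under 0.05 and in DESeq2). By edgeR's quasi-likelihood test with the tumour as a block and Benjamini-Hochberg adjustment over 11700 genes, 29.4% of all genes were higher and 33.7% lower in fibroblasts (20.3% and 57.2% without TMM scaling, 37.4% and 24.1% by DESeq2). The class labels were made from these same cells, so the adjusted p-values are a description and not independent evidence of a difference. The log2 difference from tumour cells was 9.73 ± 0.31 (SE) for Prrx1 with an adjusted p of 3.57e-29 in edgeR, 7.17 ± 0.50 for Snai2 (adjusted p = 4.45e-17), 4.06 ± 0.21 for Zeb1 (9.77e-22) and 1.43 ± 0.20 for Zeb2 (3.82e-08). Macrophage markers summed to 350 to 2550 CPM in fibroblasts, 80.4 to 457 in tumour cells and 11616 to 22012 in macrophages. The part of macrophage RNA in the Zeb2 of fibroblasts was not tested. Snai1 differed by 0.14 ± 0.19 with an adjusted p of 0.52 in edgeR, and by -0.33 without TMM scaling. Twist1 differed by -0.37 ± 0.19 with an adjusted p of 0.0818 in edgeR, and it was called lower in fibroblasts once Clone E was left out (-0.56), without TMM scaling (-0.84) and without the filter on low counts (-0.71).

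Mesenchymal and epithelial genes separated fibroblasts from tumour cells as well. Of 21 mesenchymal genes 17 were higher and 1 lower in fibroblasts, with a median log2 difference of 3.47 against -0.09 over all genes. Among them were Lox, a collagen cross-linking enzyme, at 10.53 ± 0.41, the cadherin Cdh11 at 10.06 ± 0.35 and the smooth-muscle actin gene Acta2 at 9.62 ± 0.41 (SE). Of 19 epithelial genes tested, 17 were lower and 0 higher by edgeR (0 at an unadjusted p under 0.05, 0 by DESeq2), with Cldn4 at -3.06 ± 0.31 and Krt8 at -3.02 ± 0.25. Of 15 other EMT transcription factors and bHLH partners tested, 3 were higher and 9 lower in fibroblasts, with a median of -1.20. Those higher included Twist2, the paralogue of Twist1, by 10.67 ± 0.33, and Prrx2, that of Prrx1, by 3.82 ± 0.41. Of the bHLH partners of Twist1, Tcf3 was lower in fibroblasts by a log2 difference of -1.34 and Tcf12 by -0.38, while Tcf4 differed by 0.09 (adjusted p = 0.65 in edgeR). Of 12 TGF-beta and SMAD genes, 5 were higher and 4 lower, with a median of 0.04. These counts are near the shares of all genes, 29.4% higher and 33.7% lower, and nothing is read from them. Among the genes were the ligand Tgfb2 at 4.72 ± 0.26 and the signal transducer Smad3 at -1.74 ± 0.16.

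Endothelial cells differed from tumour cells in 5 members, 3 of them higher. By edgeR, 25.1% of 11700 genes were higher and 32.4% lower (33.0% and 23.8% by DESeq2). Snai2 was higher by 5.48 ± 0.58 (SE), Zeb1 by 4.41 ± 0.22 and Prrx1 by 4.25 ± 0.49 on the log2 scale, while Twist1 was lower by a log2 difference of -3.09 ± 0.24. Prrx1 rested in endothelial cells on 35 UMIs in all, at 0 to 17.7 CPM. Fibroblast markers summed to 158 to 3675 CPM in endothelial cells and 73929 to 161700 in fibroblasts. The part of fibroblast RNA in the endothelial Prrx1 was not tested. Snai1 differed by -0.10 ± 0.20 with an adjusted p of 0.69 in edgeR, and was called lower without the filter on low counts (-0.48, adjusted p = 0.0339). Zeb2 was called lower at -0.59 ± 0.21 (adjusted p = 0.0167 in edgeR), a call lost in DESeq2, without the tumour block and when EM1, EM2 or EM3 was left out (-0.50 to -0.54), and it was -0.97 without the filter on low counts. Of 21 mesenchymal genes 9 were higher and 7 lower, and of 19 epithelial genes 17 were lower and 0 higher by edgeR (0 at an unadjusted p under 0.05, 0 by DESeq2).

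Among leukocytes, macrophages held more Zeb2 than tumour cells, by 2.88 ± 0.21 (SE) on the log2 scale with an adjusted p of 5.15e-17 in edgeR. They held less Snai1, by -3.85 ± 0.20, and less Twist1, by -4.72 ± 0.21, and their Zeb1 differed by -0.14 ± 0.19 with an adjusted p of 0.51 in edgeR, called lower without TMM scaling (-0.51). Of all genes 38.5% were higher and 39.2% lower in macrophages (28.1% and 51.2% without TMM scaling). T/NK cells held more Zeb1, by 4.94 ± 0.21 (adjusted p = 7.64e-25 in edgeR), where 33.4% of genes were higher and 40.1% lower (39.7% and 32.7% without TMM scaling, 40.1% and 35.3% by DESeq2). Their Zeb2 differed from tumour cells by -0.04 ± 0.20 with an adjusted p of 0.87. Granulocytes were higher in Zeb2 by 2.42 ± 0.20 and in Zeb1 by 2.24 ± 0.22, against 32.5% of genes higher and 46.6% lower (22.7% and 62.2% without TMM scaling). They were lower in Snai1 by -1.25 ± 0.20, a smaller difference than the -3.22 ± 0.21 of T/NK cells. That difference between differences was not tested. DC were higher in Zeb1 by 3.79 ± 0.23, against 29.6% of genes higher and 36.5% lower (21.7% and 49.3% without TMM scaling), and B cells by 2.38 ± 0.27, against 28.1% and 35.8% (35.9% and 30.1% by DESeq2). In the cells annotated as Unknown, 17.8% of genes were higher and 16.6% lower than in tumour cells, and Zeb2 was higher by 1.55 ± 0.22.

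The CD45 libraries gave the immune classes of each tumour a second time, though by a finer annotation and not from wholly separate barcode starts. Twist1 was nearly absent from them. Twist1 in granulocytes was 16.8 to 68.5 CPM in the Total libraries and 0 to 1.99 in the CD45 libraries, from 585 against 8 UMIs in all. Macrophages held 4.71 to 13.7 against 0.377 to 1.36 CPM, T/NK cells 9.96 to 57.5 against 0 to 7.63 and DC 7.59 to 32.0 against 0 to 1.46. B cells held 11.1 to 57.8 CPM in the Total libraries and no UMI in any CD45 library, which allows up to 2.27 CPM (3 UMIs) in EM1, the deepest sum, and up to 51.7 in M. Twist1 was higher in the Total library in 6 of 6 tumours for each of the 5 classes (exact two-sided sign-flip p = 0.031, the smallest possible, adjusted p = 0.0625 over 30 comparisons). Beside this, the tumour keratins were also present in the leukocytes of the Total libraries. As a percent of the tumour cells' level, Twist1 stood at 2.19 to 4.65 in macrophages, where Krt8 stood at 2.45 to 4.84 and Krt18 at 2.63 to 6.21. In T/NK cells Twist1 stood at 5.49 to 19.6%, Krt8 at 4.62 to 23.8% and Krt18 at 5.67 to 28.8%, and in granulocytes at 9.25 to 23.1%, 8.22 to 24.8% and 10.6 to 32.7%. The part of tumour cell RNA in the Twist1 of these leukocytes was not tested.

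Snai1 remained in the granulocytes of the CD45 libraries. They held 18.1 CPM in Clone M, 23.5 in EM3, 36.9 in EM2, 20.7 in EM1, 37.6 in Clone E and 30.8 in the parental tumour, each from 28 to 127 UMIs and 5 of 6 of them below the Total library of the same tumour. T/NK cells of the same CD45 libraries held 1.56 to 3.39 CPM and macrophages 1.67 to 6.94, so that granulocytes stood above both in every tumour. In the Total libraries, granulocyte Snai1 stood at 18.0 to 45.2% of the tumour cells' level, beside the 8.22 to 24.8% of Krt8.

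Zeb1 in T/NK and B cells, and Zeb2 in macrophages, granulocytes and DC, had higher values in the CD45 libraries. The classes of the 2 kinds of library need not hold the same cells. The CD45 annotation sets other myeloid cells and hybrids of T and myeloid cells apart, and the Total annotation does not. The part of this in the differences was not tested. Zeb1 in T/NK cells was 147 to 265 CPM in the Total and 204 to 325 in the CD45 libraries, and the CD45 value was the higher in 6 of 6 tumours. Zeb1 in B cells was 0 to 43.9 against 34.1 to 68.9 CPM, again higher in the CD45 library in 6 of 6. Zeb2 in macrophages was 828 to 1328 against 1059 to 1329 CPM, in granulocytes 449 to 873 against 709 to 1075 and in DC 112 to 303 against 306 to 583, with the CD45 value higher in 6 of 6 tumours each (exact p = 0.031 each, adjusted p = 0.0625). In the other classes, Zeb1 in DC (means 62.7 and 54.1 CPM) and in macrophages (4.19 and 3.32) was higher in the Total library in 5 of 6 tumours each, Zeb1 in granulocytes in 2 of 6 (17.4 and 18.8), Zeb2 in B cells in 4 of 6 (316 and 303) and Zeb2 in T/NK cells in 1 of 6 (215 and 224). The finer CD45 annotation placed Zeb1 at 207 to 340 CPM in T cells and 85.8 to 178 in NK cells. Zeb2 stood at 153 to 329 CPM in T cells, 118 to 347 in NK cells and 636 to 801 in other myeloid cells.

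**Figure D2:**
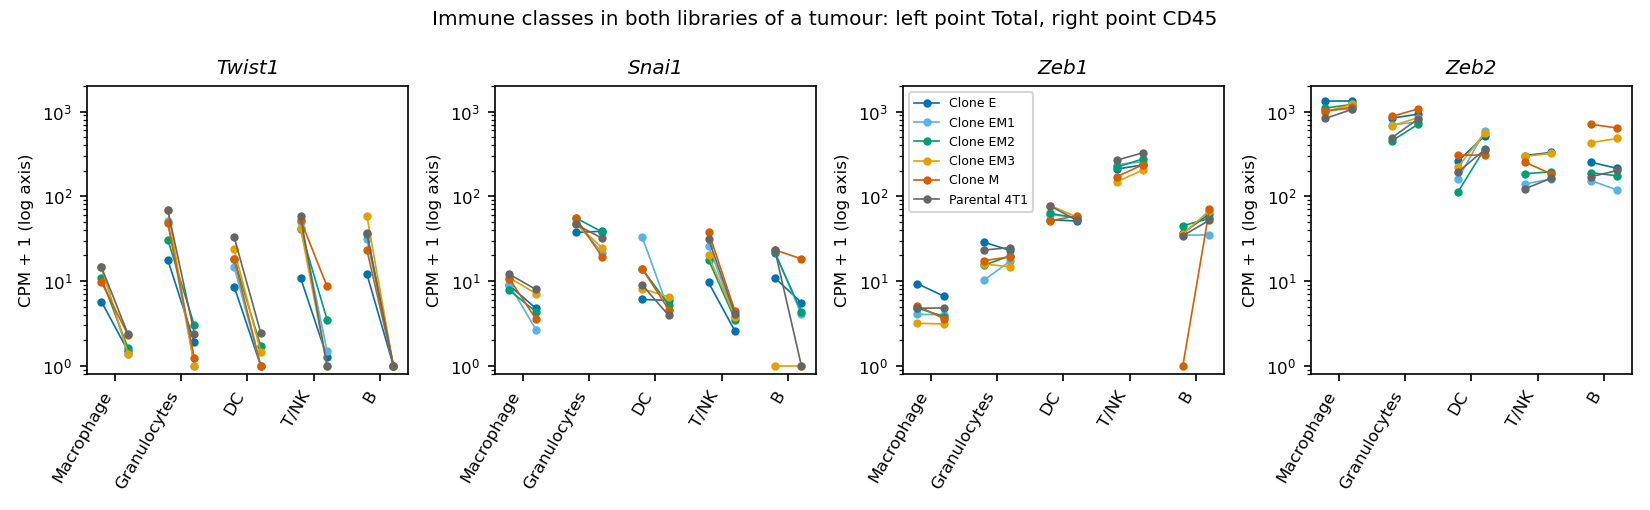
Level of 4 members (CPM + 1, log axis) in 5 immune classes, with lines joining the Total library (left) and the CD45 library (right) of 1 tumour. Twist1 is lower in the CD45 library in 6 of 6 tumours in every class, whereas Zeb1 in T/NK cells and Zeb2 in macrophages are higher there.

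In the tumour cells, Snai1, Twist1 and Zeb2 varied between clones, with 1 tumour for each, so that the clone and its single tumour cannot be told apart. Relative to Clone E, Snai1 differed on the log2 scale by 1.35 in M (95% counting interval 1.24 to 1.47), 0.86 in EM1, 0.61 in EM3, 0.27 in EM2 and -0.24 in the parental tumour. Twist1 differed from Clone E by 1.5 in EM1 (1.41 to 1.60), 1.32 in EM3, 1.13 in M, 0.81 in EM2 and 0.69 in the parental tumour. Zeb2 differed by 0.97 in EM3 (0.86 to 1.09), 0.69 in M, 0.43 in EM1, 0.32 in EM2 and 0.20 in the parental tumour. The highest tumour thus differed by member, M for Snai1, EM1 for Twist1 and EM3 for Zeb2, and Clone E was lowest for Twist1 and Zeb2. Zeb1, at only 3.87 to 7.79 CPM, differed by -1.01 in M (-1.49 to -0.50) on 252 against 41 UMIs, or -0.36 with 10 CPM added. It differed by -0.63 in EM1 (-1.15 to -0.09) and -0.56 in EM3 (-1.07 to -0.03). The intervals included 0 in EM2 (-0.26, -0.73 to 0.25) and in the parental tumour (-0.21, -0.66 to 0.29). Beside these ratios, the tumour cells of Clone E, 785 in number, stood apart in other measures: granulocyte markers summed to 1374 CPM against 173 to 545 in the other 5 tumours, macrophage markers to 457 against 80.4 to 340 and T cell markers to 99.6 against 9.80 to 27.1. Their median mitochondrial percent was 2.29 in cells with and 1.46 in cells without Zeb2, against at most 0.532 on either side in the other 5. The part of these in the ratios was not tested. Intervals cover counting error only.

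A minority of well-measured genes differed past 2-fold, and the share with smaller differences was not counted. With 10 CPM added to both tumours, and among the 5316 to 5539 genes at 50 CPM or more in either tumour of a pair, 6.63% were past 2-fold higher than Clone E in M (8.20% lower), 3.78% in EM3 (6.96%), 3.70% in EM2 (6.39%), 3.79% in EM1 (5.25%) and 2.98% in the parental tumour (6.59%). On that scale Twist1 differed by 1.45 in EM1, 1.28 in EM3 and 1.09 in M, Snai1 by 1.28 in M and Zeb2 by 0.92 in EM3, and Zeb1 lay under the 50 CPM. Twist1 passed 2-fold in EM1, EM3 and M, Snai1 only in M and Zeb2 in none of the 5. Of 17 epithelial genes measured at that level, 14 to 16 were past 2-fold lower than Clone E in each of the other 5 tumours. For 12 immediate-early and dissociation genes, 3 to 7 were lower and 1 to 2 higher. For 14 or 15 mesenchymal genes, 4 to 8 were higher and 1 to 3 lower. In M the lower epithelial genes included Lama3 at -5.78, Cdh1, the E-cadherin gene, at -5.74 and Cldn4 at -5.34, on a log2 scale with 10 CPM added. Of 11 other EMT transcription factors and partners none was past 2-fold higher in any tumour and 1 was lower, in EM3. Between the tumours that share barcode starts, Clone E was below EM3 by log2 differences of -0.61 for Snai1, -1.32 for Twist1 and -0.97 for Zeb2, and EM1 was above EM2 by 0.59, 0.69 and 0.11.

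**Figure D3:**
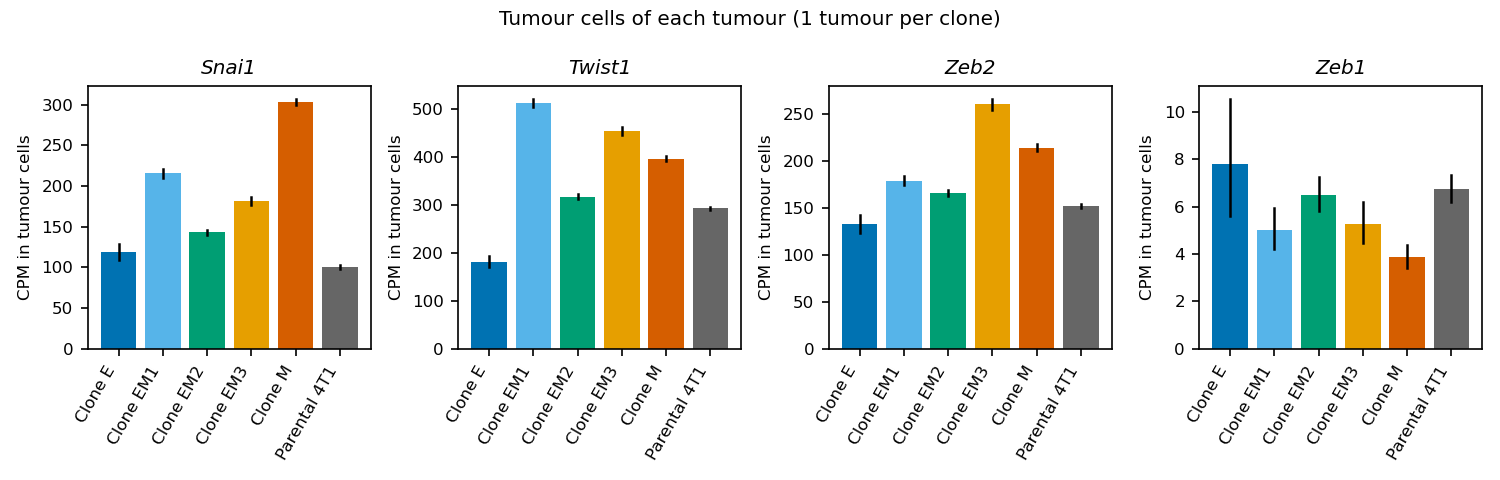
CPM of 4 members in the annotated tumour cells of each tumour, bars starting at 0, with 95% Poisson intervals of the counts as lines. Clone M is highest for Snai1 (303 CPM), EM1 for Twist1 (513) and EM3 for Zeb2 (260), and Zeb1 stays under 8 CPM.

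Over the 6 tumours, Zeb2 tended to be lower where the epithelial genes were higher, though neither adjusted p of the permutation tests was under 0.05. The mean log2(CPM + 10) of the epithelial list was 7.68 in Clone E, 5.69 in the parental tumour, 5.52 in EM1, 5.19 in EM2, 4.55 in M and 4.32 in EM3. Zeb2 had a Pearson r of -0.87 with it (exact two-sided permutation p = 0.0222, adjusted p = 0.0667 over 6 relations) and a Spearman rho of -0.94 (exact p = 0.0167, adjusted p = 0.05). With EM3 and Clone E left out, whose scores lie farthest from the median, r was -0.88. Twist1 had an r of -0.83 (exact p = 0.0431, adjusted p = 0.08) and a rho of -0.66 (exact p = 0.175), and its r of -0.14 without these 2 shows that it rested on them. Snai1 had an r of -0.60 (exact p = 0.206; -0.78 without these 2) and a rho of -0.66 (exact p = 0.175). Zeb1 had an r of 0.78 (exact p = 0.0667; 0.75 without them) and a rho of 0.71 (exact p = 0.136). Snai2 had an r of 0.84 (exact permutation p = 0.0611, adjusted p = 0.08) on 1 to 34 UMIs per tumour, and 0.28 without these 2. Prrx1 had an r of 0.88 (exact permutation p = 0.00417, adjusted p = 0.025) on 5 to 72 UMIs per tumour, and 0.73 without them. At these counts clones were compared for neither gene, and nothing is read from either relation. Clone E stood apart from the rest by 0.59 of the range. Pairs of tumours that share barcode starts hold 2 tumours each, too few for a relation within them.

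In single tumour cells, Twist1 was detected most often and Snai2 and Prrx1 almost never. With every cell thinned to 2000 UMIs, Twist1 had at least 1 UMI in 48.2% of Clone M tumour cells, 52.7% in EM3, 43.4% in EM2, 55.3% in EM1, 25.5% in Clone E and 39.9% in the parental tumour. Zeb2 was detected in 34.6, 39.7, 27.8, 28.3, 21.7 and 26.8% of the same cells in the same order of tumours. Snai1 was detected in 36.4, 28.0, 22.7, 29.6, 18.4 and 16.7%. The 95% Clopper-Pearson interval, which covers counting error only, was widest in Clone E, at 22.3 to 28.8% for Twist1. Zeb1 was detected in 0.782 to 1.95% of tumour cells, Prrx1 in 0 to 0.264% and Snai2 in 0 to 0.278%. Thinning left out 36 to 232 shallower tumour cells per tumour. Without thinning, at median depths of 6421 to 15261 UMIs, Twist1 was seen in 52.4 to 92.1% of tumour cells. In macrophages, again thinned to 2000 UMIs (median depths 5059.5 to 9524.5 before it), the share was 1.04 to 2.66% for Snai1 and 0.805 to 3.55% for Twist1, and the tumour cells lay above both in every tumour. Zeb2 in tumour cells was 10.0 to 26.2% of the macrophage level, whereas the summed macrophage markers in the same cells were 0.385 to 3.93% of theirs.

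**Figure D4:**
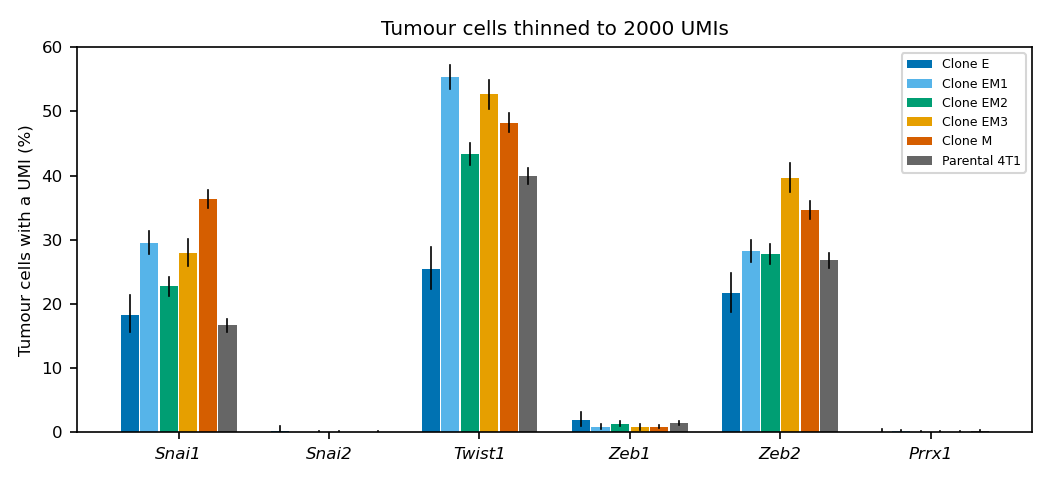
Percent of tumour cells with at least 1 UMI of each member after thinning to 2000 UMIs, for the 6 tumours, with 95% Clopper-Pearson intervals. Twist1 reaches 55.3% in EM1, Snai1 36.4% in M and Zeb2 39.7% in EM3, while Snai2, Zeb1 and Prrx1 stay under 2%.

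Snai1 was the most unevenly spread of the 3 detected members in Clone M. There the variance of its UMIs per cell was 1.79 times the mean, and 5.80% of cells held 3 or more Snai1 UMIs of 2000 while 63.6% held none. Over the other 5 tumours the ratio was 1.16 to 1.53 for Snai1, and over all 6 it was 1.19 to 1.56 for Twist1 and 1.06 to 1.2 for Zeb2, where equal sampling of equal cells gives 1. Cells with a pair of members were compared with the number that the product of the 2 shares gives. Cells with both Snai1 and Twist1 numbered 0.95 to 1.01 times that product over the 6 tumours. Cells with Snai1 and Zeb2 numbered 0.86 to 1.08 times and cells with Twist1 and Zeb2 0.73 to 1.04 times the product, the lowest in Clone E, from 29 cells. Tumour cells were then divided by detection of each member, which could be done for Snai1 (132 to 1684 cells with a UMI per tumour), Twist1 (183 to 2273) and Zeb2 (156 to 1601). Zeb1, Snai2 and Prrx1 had 50 such cells in 1, 0 and 0 tumours. No other member was called between the sides in any of the 3 divisions by edgeR (0 of 3 tested in each, 0 at an unadjusted p under 0.05, 0 by DESeq2, which left those of the Twist1 division untested). Of all genes, 2.23% were called higher and 1.36% lower in the division by Snai1, 0.31% and 0.698% in that by Twist1, and 0.391% and 0.665% in that by Zeb2. With shares this small, 0 of 3 says little about the members. In cells with Snai1, Twist1 differed by -0.05 ± 0.04 (SE, log2, adjusted p = 0.64 in edgeR), lower in 6 of 6 tumours, and Zeb2 by -0.02 ± 0.05 (adjusted p = 0.91). In cells with Twist1, Zeb2 differed by 0.00 ± 0.04 (adjusted p = 0.999).

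Cells with Snai1 held more of the immediate-early gene Fos and of Hes1 and Ccn2. By edgeR's quasi-likelihood test with the tumour as a block, 224 of 10027 genes (2.23%) were higher and 136 (1.36%) lower in them, 134 and 81 of these in the same direction in 6 of 6 tumours. Fos was 1161 CPM with and 808 without Snai1 in Clone M, 1430 and 670.5 in EM3, 922 and 315 in EM2, 1803 and 835 in EM1, 2964 and 1444 in Clone E and 1044 and 544 in the parental tumour. The side with Snai1 was higher in every tumour, by 1.03 ± 0.06 (SE, log2, adjusted p = 2.36e-15 in edgeR). Hes1, a NOTCH target and repressor, was higher by 1.10 ± 0.06, with 117 to 289 CPM on the side with Snai1 and 54.1 to 159 without. Ccn2, a matricellular gene induced by YAP and TGF-beta, was higher by 0.94 ± 0.07. The 5 genes highest in the same direction in every tumour also held Hist1h4a (1.24 ± 0.29, at 8.16 against 3.60 CPM) and Ccdc142 (1.01 ± 0.28). Of 12 immediate-early and dissociation genes 9 were higher and 2 lower (7 and 1 of 11 tested by DESeq2). Dusp1 (0.78 ± 0.05), Atf3 (0.59 ± 0.06) and Jun (0.52 ± 0.05) rose with Snai1, and of the near-identical heat-shock copies Hspa1a was lower (-1.21 ± 0.25) and Hspa1b higher (0.33 ± 0.07), so counts of these 2 may be split between them. Beside these calls, summed dendritic markers were higher with Snai1 in 6 of 6 tumours (means 581 and 536 CPM), fibroblast markers in 4 of 6 (331 and 305) and the markers of all leukocytes in 5 of 6 (74.8 and 69.6). Lower in 5 of 6 were tumour markers (6269 and 6636), endothelial markers (116 and 124), NK markers (10.5 and 11.6) and those of B and plasma cells (24.1 and 24.4). Over all tumour cells Pdgfra alone held 35.7 to 194 CPM of the fibroblast markers, which summed to 223 to 373. The dendritic markers summed there to 434 to 732 CPM, beside 28.0 to 194 of the all-leukocyte markers. In DC these 2 sums were 3398 to 7488 and 2137 to 3331 CPM. The part of these markers in the calls was not tested. Median depths before thinning were 7435.5 to 15120 UMIs with Snai1 and 6677 to 15485 without.

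Some genes of the transition itself also differed with Snai1. Of 17 epithelial genes 6 were lower and 0 higher by edgeR (0 at an unadjusted p under 0.05, 0 by DESeq2), with a median of -0.18 against 0.00 over all genes, and DESeq2 called 2 of 15 tested lower. Krt19 was lower by -1.54 ± 0.13, the laminin chain Lama3 by -0.52 ± 0.14, Epcam by -0.36 ± 0.06, the claudin gene Cldn7 by -0.35 ± 0.10 and Cdh1 by -0.35 ± 0.10 (SE, log2). Of 17 mesenchymal genes 4 were higher and 0 lower by edgeR (3 lower at an unadjusted p under 0.05, 1 higher and 0 lower of 15 tested by DESeq2), among them Thbs1 (0.28 ± 0.05), Col5a1 (0.25 ± 0.05) and Sparc (0.24 ± 0.04). Vim and Fn1 were not among them, at -0.02 and 0.08. Of 14 other transcription factors 5 were higher, led by the inhibitors of bHLH factors Id3 (0.70 ± 0.06) and Id1 (0.56 ± 0.07) and the forkhead factors Foxq1 (0.51 ± 0.11) and Foxc2 (0.36 ± 0.08). Of 12 TGF-beta genes 4 were higher, the inhibitory Smad7 (0.45 ± 0.04), the ligand Tgfb3 (0.39 ± 0.07) and the receptors Tgfbr3 (0.33 ± 0.07) and Tgfbr2 (0.16 ± 0.05). Of 10 corepressors only Ajuba, a LIM protein that binds SNAIL proteins, was higher (0.45 ± 0.08). Of 7 cell division genes 6 were lower, among them Top2a (-0.47 ± 0.07) and Mki67 (-0.39 ± 0.08), beside the mitotic genes Cenpi (-1.16 ± 0.23), Depdc1b (-0.98 ± 0.28) and Kif18b (-0.68 ± 0.20). Gipc2 was lower by -0.74 ± 0.20. Of 6 genes of Snail protein turnover 0 were called by edgeR (1 higher and 1 lower at an unadjusted p under 0.05, 0 by DESeq2).

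Some epithelial genes were called lower in cells with Twist1, and no mesenchymal gene was called. By edgeR 32 of 10321 genes (0.31%) were higher and 72 (0.698%) lower. Of 18 epithelial genes 8 were lower and 0 higher by edgeR (0 at an unadjusted p under 0.05), with a median of -0.37. DESeq2 tested 4 of them and called 1 lower and 0 higher. Krt19 was 5.16 CPM with and 10.9 without Twist1 in Clone M, 13.4 and 13.2 in EM3, 44.9 and 202 in EM2, 5.24 and 64.8 in EM1, 197 and 553 in Clone E and 31.0 and 98.4 in the parental tumour. It was lower with Twist1 in 5 of 6 tumours, by -1.85 ± 0.11 (SE, log2, adjusted p = 5.35e-16 in edgeR). Krt14 (-0.74 ± 0.13), Lama3 (-0.68 ± 0.12) and Cldn4 (-0.66 ± 0.10) were next, and Epcam was lower in 6 of 6 tumours by -0.37 ± 0.05. The highest in every tumour were the deiodinase Dio2 (0.48 ± 0.08), the cytokine Tslp (0.33 ± 0.04), the coactivator Cited2 (0.29 ± 0.04), the aryl hydrocarbon receptor gene Ahr (0.28 ± 0.06) and Srf (0.24 ± 0.05). Tslp stood at 78.4 to 535 CPM without and 101 to 724 with Twist1. The lowest in every tumour were Cited1 (-1.15 ± 0.23), Dhrs3 (-1.08 ± 0.25), Fxyd3 (-0.94 ± 0.19), the leukocyte gene Hcls1 (-0.72 ± 0.18) and the transferrin gene Trf (-0.71 ± 0.12). Of 12 immediate-early genes 6 were lower, among them Atf3 (-0.39 ± 0.05) and Fos (-0.36 ± 0.08), opposite in sign to the cells with Snai1. That difference between the 2 divisions was not tested, and both use the same cells. Of 17 mesenchymal genes 0 were called by edgeR (1 higher and 2 lower at an unadjusted p under 0.05, 0 of the 9 that DESeq2 tested), and of 14 other transcription factors 0 (3 higher and 1 lower unadjusted, 0 of the 3 that DESeq2 tested). Beside these calls, macrophage markers (means 226 and 273 CPM) and endothelial markers (118 and 125) were lower with Twist1 in 6 of 6 tumours, those of all leukocytes (66.1 and 74.4) and of B and plasma cells (22.1 and 26.6) in 5 of 6, and dendritic markers were higher in 5 of 6 (558 and 537). Over all tumour cells the endothelial markers summed to 82.1 to 159 CPM, of which Flt1 alone held 63.0 to 140. The dendritic markers summed there to 434 to 732 CPM, beside 28.0 to 194 of the all-leukocyte markers. Cells with Twist1 were deeper before thinning and had a lower median mitochondrial percent in 6 of 6, for example 10157 against 9451 UMIs and 0.241 against 0.282% in EM1. Their part in the calls was not tested. DESeq2 gave an adjusted p for only 517 of all genes in this division, so its counts here say little.

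Cells with Zeb2 had lower levels of some epithelial and cell division genes and a higher sum of macrophage markers. By edgeR 40 of 10229 genes (0.391%) were higher and 68 (0.665%) lower. Of 18 epithelial genes 11 were lower and 0 higher by edgeR (0 at an unadjusted p under 0.05, 0 by DESeq2), with a median of -0.29 (DESeq2 called 4 of 12 tested lower), led by Krt19 (-1.14 ± 0.12), Krt14 (-0.69 ± 0.10), Cldn7 (-0.56 ± 0.10) and the factor Elf3 (-0.51 ± 0.13). Epcam was 37.8 CPM with and 56.9 without Zeb2 in Clone M, 7.23 and 6.91 in EM3, 122 and 150.5 in EM2, 106 and 158 in EM1, 1296 and 1530 in Clone E and 210 and 292 in the parental tumour, lower with Zeb2 in 5 of 6 (-0.43 ± 0.05, adjusted p = 9.72e-08 in edgeR). Of 7 cell division genes 3 were lower, Top2a (-0.42 ± 0.05), Mki67 (-0.36 ± 0.06) and Cdk1 (-0.25 ± 0.06). Of 17 mesenchymal genes S100a4 was lower (-0.17 ± 0.04) and 0 were higher by edgeR (1 at an unadjusted p under 0.05, 0 by DESeq2). The lowest in every tumour were Fcgbp (-3.10 ± 0.26), the lactoferrin gene Ltf (-1.88 ± 0.25), Krt19, Hspa1a (-1.03 ± 0.21) and Cdkn3 (-0.92 ± 0.23). The highest in every tumour were Mpeg1 (0.74 ± 0.15), a macrophage pore protein, Ccnq (0.67 ± 0.18), the myeloid lectin Clec4e (0.66 ± 0.17), Rgs1 (0.59 ± 0.15) and the protease Mmp19 (0.47 ± 0.11). Beside them, the 9 macrophage markers summed to 111 to 798 CPM with Zeb2 and 90.9 to 426 without, higher with Zeb2 in 6 of 6 tumours (means 320 and 234), against 2 of 6 for Snai1 and 0 of 6 for Twist1. Fibroblast markers, of which Pdgfra held 35.7 to 194 CPM over all tumour cells, were higher with Zeb2 in 5 of 6 (means 355 and 302). The markers of all leukocytes were higher in 5 of 6 (86.4 and 66.1), and the tumour markers were lower in 6 of 6 (6069 and 6725). Clone E had the widest gap in the macrophage (798 and 426 CPM), fibroblast (522 and 337) and all-leukocyte sums (276 and 179). The means of these sums lean on that tumour, and the 2 sides lay closer in each of the other 5. Cells with Zeb2 were shallower before thinning in 6 of 6 tumours (6292 to 15145 against 7004 to 15505 UMIs) and had a higher median mitochondrial percent in 5 of 6, in Clone E 2.29 against 1.46. With cells holding the leukocyte gene Ptprc left out, 26 genes were higher, and the part of macrophage RNA, depth and mitochondrial percent in the other calls was not tested.

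Fewer epithelial genes were called in all 3 divisions when cells with Krt19 were left out. Tumour cells with 2 or more Krt19 UMIs made up 0.173% in Clone M, 0.209% in EM3, 1.69% in EM2, 0.290% in EM1, 11.4% in Clone E and 1.34% in the parental tumour. After these data were seen, each division was repeated without any cell holding a Krt19 UMI, a wider set, which left 74.0% of the tumour cells in Clone E, 91.1% in EM2, 93.6% in the parental tumour and 97.6 to 99.2% in the other 3. The part of the cells with 2 or more Krt19 UMIs, and that of the smaller number of cells, was not tested. Epithelial genes called lower then numbered 2 of 16 for Snai1, 4 of 17 for Twist1 and 6 of 16 for Zeb2, with medians of -0.09, -0.13 and -0.20. Krt19 is itself a gene of the epithelial list and had no UMI in the cells kept. Its call in each division was therefore lost by the choice of cells. Epcam (-0.32 for Snai1, -0.21 for Twist1 and -0.37 for Zeb2) and Lama3 (-0.56, -0.71 and -0.47) were called lower in all 3. Cdh1 was called in 0 of the 3 (-0.20, -0.33 and -0.27, adjusted p = 0.37, 0.0704 and 0.159 in edgeR). Of the genes called with all cells, 206 of 224 higher and 112 of 133 lower genes stayed called for Snai1, 29 of 32 and 51 of 68 for Twist1 and 29 of 40 and 43 of 64 for Zeb2. For Snai1 the same 4 mesenchymal genes were called higher, and S100a4 was called lower (-0.16). For Twist1, Thbs1 was called higher (0.16).

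**Figure D5:**
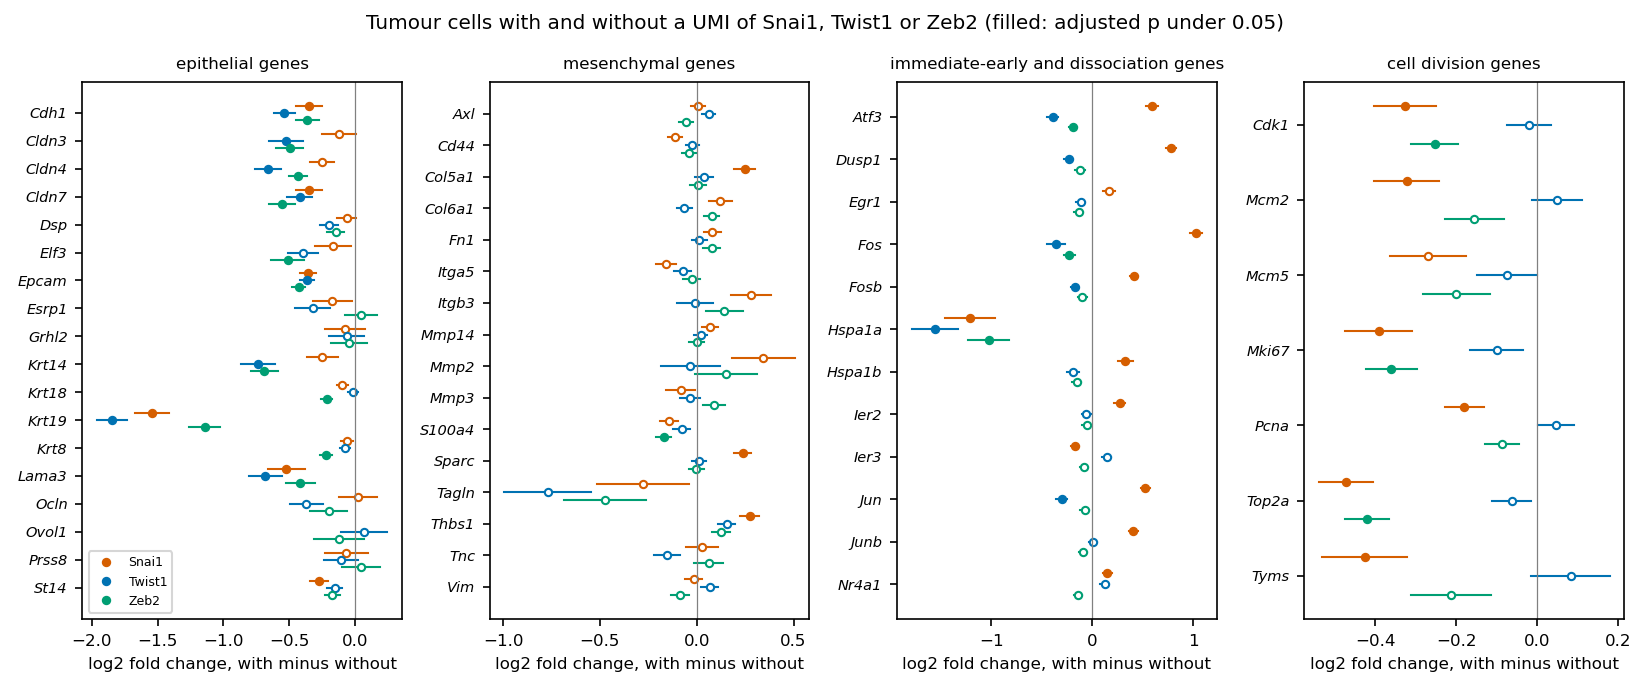
Log2 fold change (with minus without a UMI) and standard error for measured genes of 4 lists, all but 1 of them shown, in tumour cells divided by Snai1, Twist1 or Zeb2, filled where the adjusted p of edgeR is under 0.05. Every epithelial gene that is filled lies left of 0 in all 3 divisions, and immediate-early genes such as Fos lie right of 0 for Snai1 (1.03) and left for Twist1 (-0.36).

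Over all 52 sums of class and tumour, the genes most like 5 of the members were found among 8928 genes by Pearson's r of log2(CPM + 10). Snai2 was not ranked. These sums share libraries and classes, and r is a description. For Snai1 they were Nedd4 (0.93), Amotl2, Bcar1, Fermt2 and Lamb1 (0.92 each), whose highest means lay in tumour, endothelial or fibroblast sums. For Twist1 they were Ltbp2 (0.95), Kirrel (0.95), Scara3, Tpbg and Ltbp1 (0.94 each), all highest in tumour cells. For Zeb1 they were Akap13 (0.89), Khdrbs3 (0.82), Rnf125, Cd200 and Slco3a1, and for Zeb2 Lrrc25 (0.85), Rnf149, Pilra, Atp6v0b and Prdx5. For Prrx1 they were the fibroblast genes Adamts2, Fbn1, Cd248, Slit3 and Cpxm2 at 0.98 to 0.99. Among the members, r was 0.81 for Prrx1 and Snai2, 0.72 for Snai1 and Twist1 and -0.59 for Zeb1 and Zeb2.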

How the data were processed

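Single-cell RNA libraries of 6 tumours, a Total and a CD45 library from each, were analysed from the deposited tables, which hold whole UMI counts per gene and cell as the authors deposited them, with a cell class for each cell. The submitters' processing notes name Cell Ranger and the mm10 build, and other steps are not given in the sources used here. The percent of mitochondrial counts per cell was taken as the authors deposited it.

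Groups are the tumours' titles. The members and gene lists were chosen with earlier results of these data known. Doublets were called per library by simulation (2154 of 115612 cells, 1.86%) and left out. Counts were summed by class and library, kept at 20 or more cells, and given as CPM. Classes were compared with edgeR 4.0.16 (R 4.3.3; quasi-likelihood test, TMM, low-count filter, tumour as block, Benjamini-Hochberg adjusted p under 0.05). Tumour cells were thinned to 2000 UMIs, divided by detection of a member (at least 50 cells a side in at least 4 tumours), summed and fitted in the same way, leaving that member out. Named genes were the 5 highest and 5 lowest called genes moving the same way in every tumour, and up to 4 examples of each list; Cdh1, Vim, Fn1, Jun, Hspa1b, the Epcam values and the partners of Twist1 were named after their values were seen. The values of 1 gene of the mesenchymal list are not reported here. Clone ratios of the members are of CPM as measured; shares of all genes past 2-fold, and list genes, used 10 CPM added and 50 CPM or more in either tumour. On simulated fibroblast and tumour sums with 10766 genes, 84.7% of changes of 1 and 99.0% of changes of 2 on the log2 scale were recovered, with 9 false calls. That simulation gave every gene the same spread and changed far fewer genes than were called in the measured contrast. It changed no gene of very low level and did not cover the divisions of tumour cells. Alternatives were DESeq2 1.42.0, no TMM factors, no filter, no block, other depths, cells with Ptprc left out, doublets kept and each tumour left out. The tumour pairs the sums, since both sides of each contrast come from the same tumour. Intervals are 95% and cover counting error only.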

Additional observations from a re-analysis of the deposited data

Results flagged for a closer look

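Of 50 groups of 6 tumours examined for 1 value far from the rest, 2 had one, and chance gives about 1 in 20 groups. Zeb1 in B cells of the Total libraries was 0 CPM in Clone M, from 62 cells, against 33.3 to 43.9 in the other 5 tumours. The count of 0 allows up to 22.3 CPM (3 UMIs), and the CD45 library of the same tumour gave 68.9 CPM on 4 UMIs, the highest of the 6. Snai1 in DC of the Total libraries was 32.1 CPM in EM1, from 55 cells, against 5.06 to 12.9 in the other 5. It rested on 7 UMIs, and the CD45 library of EM1 gave 3.53 CPM, within the 2.92 to 5.51 of all 6.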

How the results depend on the processing

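No called value reversed in the alternatives run. Values that were not called changed sign in 16 of the members' class differences and 28 of their differences in the divisions, and 2 ratios of Zeb1 over Clone E did so without cells holding Ptprc. In the class contrasts, member fold changes stayed on their side of the threshold in 273 of 288 values with 1 tumour left out and in 259 of 276 under the other settings. Without the filter on low counts, genes lower numbered 6421 for DC, 6159 for endothelial cells, 6212 for fibroblasts and 5819 for Unknown, and genes higher 7915 for granulocytes and 8522 for macrophages. Without TMM factors, 6694 genes were lower in fibroblasts, whose median over all genes moved from -0.09 to -0.57 (granulocytes -0.32 to -0.92, macrophages -0.02 to -0.39, DC -0.14 to -0.52, T/NK cells -0.08 to 0.12). The causes were not tested.

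The tumour is the replicate block. Without it, 1040 genes were lower in Unknown, Twist1 there was no longer called, and the divisions of tumour cells gave 0 genes higher and 0 lower by edgeR for each member (40, 17 and 20 at an unadjusted p under 0.05 for Snai1, Twist1 and Zeb2). Other counts of the divisions moved with depth and tool. At 1000 UMIs, Snai1 gave 100 higher and 28 lower, Twist1 16 and 46, and Zeb2 14 and 31. At 4000 UMIs, Snai1 gave 443 and 270, Twist1 95 and 133, and Zeb2 173 lower. DESeq2 gave 90 and 34, 19 and 19, and 12 and 12. Without the filter, Snai1 gave 207 lower, Twist1 79 and 131, and Zeb2 231 lower. Zeb2 gave 26 higher without cells holding Ptprc and 43 lower without cells holding Krt19, the latter setting chosen after seeing the data. With 1 tumour left out, Snai1 gave 71 (without the parental tumour; 88 without M) to 143 lower, Twist1 19 (without EM1 or EM3; 20 without M) to 44 higher, and Zeb2 18 (without EM2; 25 without EM1) to 37 higher and 32 (without the parental tumour; 37 without EM2, 43 without M) to 88 lower.

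The share of cells with a UMI is set by depth: at 1000 UMIs, 4000 UMIs and without thinning, Snai1 in M was 22.6, 53.3 and 79.4%, Twist1 in EM1 34.3, 75.4 and 86.4%, and Zeb2 in EM3 22.2, 61.3 and 91.9%. The log2 ratio of Zeb2 in EM3 over Clone E was 1.12 without cells holding Ptprc and 0.85 as a mean of per-cell CPM. With 1 CPM added, the r of Zeb2 with the epithelial genes was -0.92 (exact permutation p = 0.0111, adjusted p = 0.0333).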

Other observations

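Cells annotated as Unknown, of which 22 to 84 were used in each of 4 tumours, held Snai1 at 47.9 to 62.0% and Twist1 at 52.7 to 61.6% of the level in the tumour cells of the same tumour. Krt8 stood at 40.6 to 63.4% and Krt18 at 41.6 to 58.6% there. Zeb2, which is high in macrophages, stood at 226 to 302% of the tumour cells' level.

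Tumour cells with 2 or more Krt19 UMIs of 2000, 4 to 82 cells per tumour, held more Epcam than cells without Krt19 in 5 of 6 tumours. It was 2427 against 1299 CPM in Clone E, 2063 against 134 in EM1, 1282 against 120 in EM2, 2313 against 45.6 in M and 1513 against 238 in the parental tumour, and in EM3 it was 0 against 7.21 from 4 cells. Twist1 was lower in them, at 110 against 160 CPM in Clone E, 155 against 320 in EM2 and 145 against 291 in the parental tumour, and rested on 0 to 3 UMIs in the other tumours. These cells were chosen by a measured gene, so their values are a description.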
